A study of Homo sapiens with 6 samples.

Results

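The mitochondrial genome carries 37 genes and a control region, and every listed thymidine glycol (Tg) site on it was followed here in 2 site lists. The members were all sites on the mitochondrial chromosome, assigned to genes by overlap and by summit, the base of a site with the most reads. There were 10 such sites among 3688 in the wild-type list (0.271%) and 9 among 9373 in the double-knockout list (0.0960%). The 37 genes, of 59792 in the RefSeq table of GRCh38.p14 used for names and positions, comprise 13 that encode proteins, 2 that encode ribosomal RNAs and 22 that encode transfer RNAs.

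The cells were HEK293T, a human embryonic kidney line transformed with the SV40 large T antigen. The compared groups were wild-type cells and cells labelled NTHL1-/-,NEIL1-/-, in which both DNA glycosylases are disrupted. Neither group was treated beyond the labelling of its DNA, and whether the double knockout is 1 clone is not given in the sources used here. Of 6 samples, 4 were labelled libraries made by DPC-Seq (2 per genotype) and 2 were inputs (1 per genotype), and the files hold 1 list per genotype for its 2 labelled libraries, which leaves no replicate spread for any value and no p-value for any difference between the genotypes.

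Tg is an oxidised form of thymidine that blocks DNA polymerases. NTHL1 excises it as the first step of base excision repair, and NEIL1 removes it among other oxidised bases. Both enzymes work in mitochondria as well as in the nucleus. In DPC-Seq, purified NTHL1 is trapped covalently on the DNA where it has removed such a base, and the bound fragments are sequenced. Mitochondrial DNA is a small circle present in many copies per cell, packed by TFAM rather than by histones, and it lies next to the respiratory chain, a source of reactive oxygen. Its proteins are subunits of respiratory complexes I, III, IV and V, and its control region holds the promoters and the origin of heavy-strand replication. Sites mark DNA, so no value below is an expression level.

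Sites covered most of the mitochondrial genome in both genotypes, and in nearly the same places. Wild-type sites covered 10673 of 16569 bp (64.4%) and double-knockout sites 10865 bp (65.6%), on the hg38 mitochondrial chromosome. The bases covered in both lists numbered 10580, which is 99.1% of the wild-type and 97.4% of the double-knockout coverage. Only 93 bp were covered in wild type alone and 285 bp in the double knockout alone, and 5611 bp (33.9%) lay under no site in either list. On chromosomes 1 to 22, X and Y the covered share was 0.0538% in wild-type cells and 0.150% in the double knockout.

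**Figure D1:**
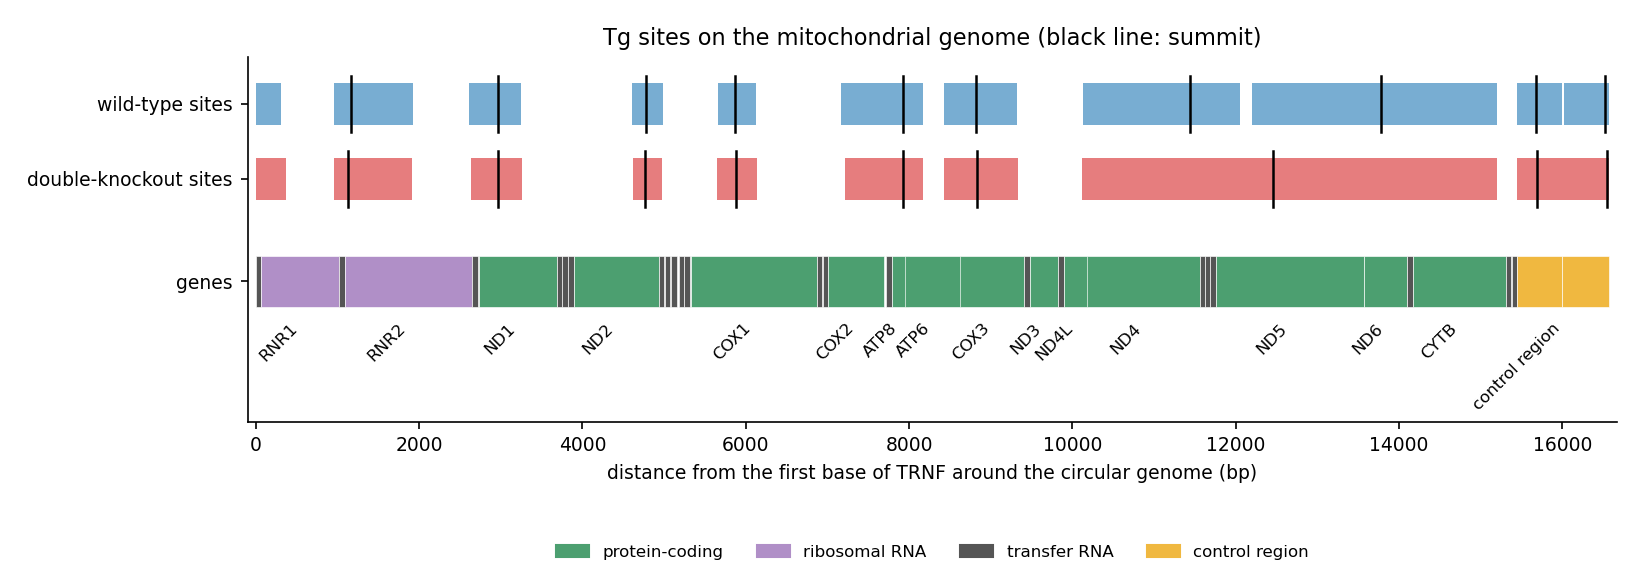
Map of the circular mitochondrial genome, cut open at the first base of TRNF (x axis, distance in bp), with wild-type sites (blue, 10), double-knockout sites (red, 9), their summits (black lines) and the genes by kind; transfer RNA genes are drawn without names. The white line in the control region of the wild-type row is the origin of the numbering, around which 21 bp lie under no wild-type site. Blocks of both rows stand at the same places, except that the 2 wild-type sites over ND4 to CYTB are 1 site in the double knockout.

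The same 23 genes had a site in both lists and the same 14 had none. Of the 23, 11 lay under a site along their whole length in both lists: ATP8, ND4, ND6, TRNF, TRNV, TRNL1, TRNK, TRNH, TRNS2, TRNL2 and TRNE. ND5 joined them in the double knockout only. The covered share of a gene differed between the lists by at most 8.33 percentage points, the difference at ND5 (91.7% in wild type, 100% in the double knockout).

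The control region was almost wholly covered. It runs from 16024 to 16569 and on from 1 to 576 around the origin of the numbering, 1122 bp in all, of which 98.1% lay under wild-type and 99.9% under double-knockout sites. Each list split it into 2 sites at the origin. The first, at 22 to 887 in wild-type cells and 1 to 942 in the double knockout, had its summit at 535 and 558, just before TRNF, the gene of the phenylalanine transfer RNA, and ran on into RNR1. The second, at 16024 to 16569 and 16025 to 16569, began where TRNP, the proline transfer RNA gene, ends (16023), and had its summit at 16252 and 16262. Across the origin the 2 double-knockout sites touch, so on the circle they form 1 block of covered sequence.

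Both ribosomal RNA genes were covered at their ends, with an open stretch between, which in RNR2 lay toward its far end. RNR1, which encodes the RNA of the small ribosomal subunit, had 31.6% of its 954 bp covered in wild-type cells and 38.4% in the double knockout. RNR2, which encodes that of the large subunit, had 55.7% and 53.7% of its 1559 bp covered, with a summit at 1740 in wild-type cells and 1713 in the double knockout. A stretch from 888 to 1540 within RNR1 and another from 2498 to 3188 within RNR2 held no wild-type site, and in the double knockout these stretches ran from 943 to 1530 and from 2489 to 3210.

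Complex I genes ranged from wholly covered to having no site. ND4 and ND6 were wholly covered in both lists, and ND1 by 54.5% in wild-type cells and 55.1% in the double knockout. ND2 was covered by 31.0% and 30.3%, and ND4L by 20.9% and 22.6%. ND3 was the only protein gene with no site. All of these encode core membrane subunits of NADH dehydrogenase. The long stretch from ND4 to CYTB was the main place where the lists parted. Wild type had a site at 10705 to 12628 with its summit in ND4 (12017) and another at 12780 to 15775 with its summit in ND6 (14359), 151 bp of ND5 apart. The double knockout had 1 site of 5079 bp at 10700 to 15778, with its summit in ND5 (13036), and it was the widest of all 9373 sites in that list. The wild-type site of 2996 bp ranked 3 by width among 3688.

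CYTB, the only mitochondrial gene of complex III, encodes cytochrome b and was covered by 90.2% in wild-type cells and 90.5% in the double knockout, though no summit fell in it. Of the complex IV genes, which encode the catalytic core of cytochrome c oxidase, COX3 was covered by 88.8% and 90.2%, COX2 by 77.5% and 70.2%, and COX1, the longest, by 30.7% and 31.8%. COX1 held 1 site per list, at 6234 to 6706 and 6222 to 6711, entirely within the gene. Of the complex V genes, which encode ATP synthase subunits, ATP8 was wholly covered and ATP6 by 61.5% and 62.3%. A wild-type site at 7740 to 8748 and a double-knockout site at 7790 to 8747 spanned COX2, TRNK, ATP8 and ATP6, and both had their summit at base 8503, in ATP8.

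Transfer RNA genes were mostly either wholly under a site or outside of any. Of 22, 8 were wholly covered in both lists and 13 had no site in either. TRNW, the tryptophan transfer RNA gene, was covered in part (70.6% and 66.2%). The 13 without a site lay in 5 stretches. TRNI, TRNQ and TRNM lay together between ND1 and ND2, in the longest stretch without a site (3828 to 5188 in wild type, 1361 bp, and 3834 to 5195 in the double knockout, 1362 bp). TRNA, TRNN, TRNC and TRNY lay between ND2 and COX1, in the cluster that holds the origin of light-strand replication. TRNS1 and TRND lay between COX1 and COX2, TRNG and TRNR on either side of ND3, and TRNT and TRNP between CYTB and the control region. As a class, 40.0% of transfer RNA gene bases were covered in wild-type cells and 39.8% in the double knockout, against 68.5% and 69.8% for protein genes, 46.5% and 47.9% for ribosomal RNA genes and 98.1% and 99.9% for the control region. These shares rest on 10 and 9 sites, and a covered gene need not hold a Tg, since a site is as wide as the overlapping fragments.

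**Figure D2:**
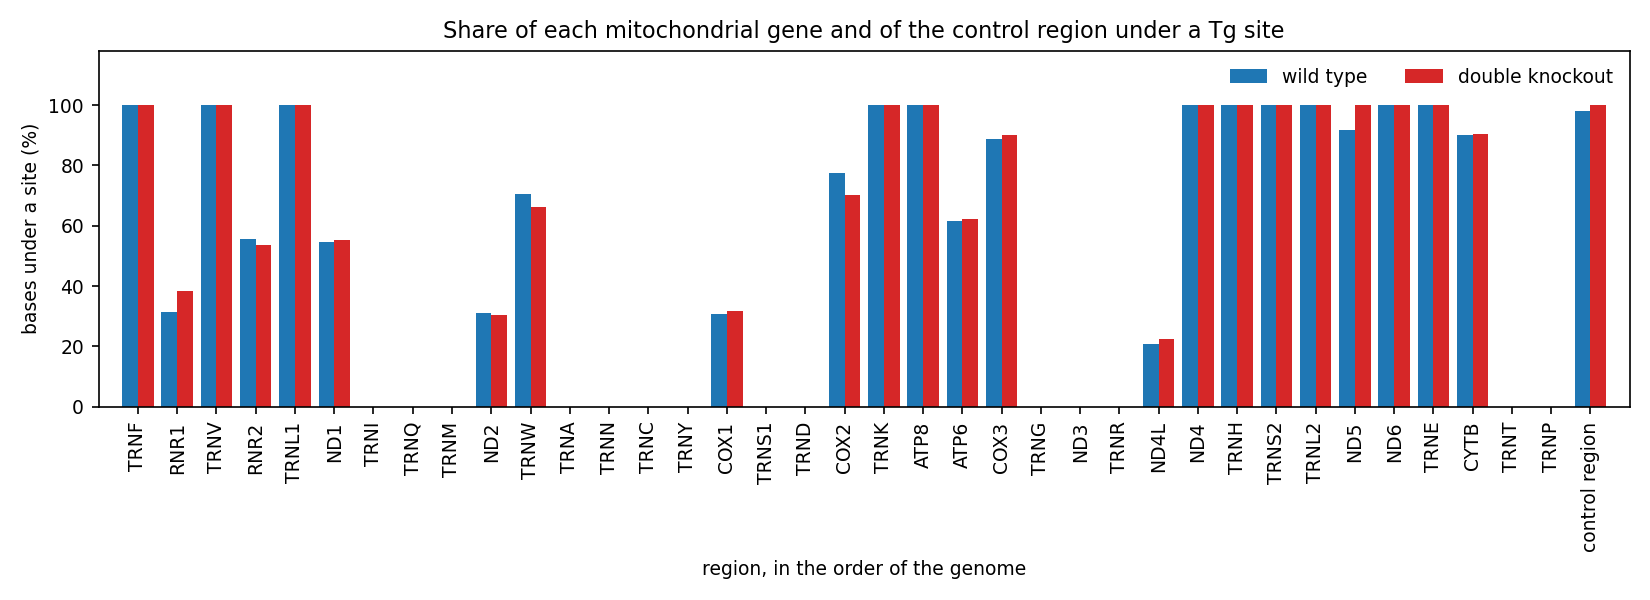
Share of bases under a site (y axis, percent) for each of the 37 mitochondrial genes and the control region in genome order (x axis), wild type in blue and double knockout in red. The 14 genes without a bar had no site in either list, and the pairs of bars differ by at most 8.33 percentage points.

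All 10 wild-type sites overlapped a double-knockout site by at least 1 bp, and all 9 double-knockout sites overlapped a wild-type site. The background shares over the whole lists were 75.3% and 28.3%. Sites covered 64.4% and 65.6% of the mitochondrial chromosome, so an overlap of 1 bp was close to given there. On chromosomes 1 to 22, X and Y they covered 0.0538% and 0.150%, so these shares are not like for like. In 8 pairs the summits lay close to each other, 0 to 27 bp apart with a median of 7.5 bp. At shared sites of chromosomes 1 to 22, X and Y, the median distance between summits was 92.0 bp and 52.7% lay within 100 bp. Of the 16 edges of those 8 pairs, 14 differed by no more than 25 bp and the largest difference was 55 bp. The other 2 pairs are the wild-type sites over ND4 and ND6, whose shared partner had its summit 1019 bp and 1323 bp away. The 10 mitochondrial pairs had a median of 249.5 wild-type reads and all shared sites a median of 14, and the part of this depth in the closeness of the summits was not tested.

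The strength of a site was read in 3 ways. The deposited fold enrichment is the authors' ratio of reads at the summit to the peak caller's local background. The −log10 q is the caller's own, and whole reads and the background were recovered from the deposited fold and −log10 p. The values of each site follow in the order of the genome, by the place of the summit.

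In the control region before TRNF there were 278 wild-type reads (95% counting interval 246 to 313) at a fold of 4.39, the highest of the 10, and 352 double-knockout reads (316 to 391) at a fold of 3.31. In RNR2 there were 177 wild-type reads (152 to 205) at a fold of 3.16 and 221 double-knockout reads (193 to 252) at a fold of 2.33. These RNR2 folds were the lowest of the mitochondrial sites in both lists. In ND1 there were 292 wild-type reads (fold 3.89) and 400 double-knockout reads (fold 3.15), and in ND2 196 (fold 3.85) and 227 (fold 2.74). ND2 reads were thus lower than ND1 reads in both lists, beyond their counting intervals (ND1 259 to 328 and 362 to 441, ND2 169 to 225 and 198 to 259).

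In COX1 there were 253 wild-type reads (fold 3.53) and 362 double-knockout reads (fold 3.05). In ATP8 there were 163 (fold 3.34) and 213 (fold 2.61), the fewest reads of any mitochondrial site in either list. In COX3 there were 173 (fold 3.57) and 247 (fold 3.03). The counting intervals of ATP8 and COX3 overlapped in both lists, so their order cannot be told from these reads (139 to 190 and 148 to 201 in wild type, 185 to 244 and 217 to 280 in the double knockout). In ND4 there were 246 wild-type reads (fold 3.52) and in ND6 312 (fold 4.08), the most of the 10 wild-type mitochondrial sites. The double-knockout site over both had 413 reads at its ND5 summit (374 to 455, fold 3.30), the most of the 9 mitochondrial sites there. In the control region after TRNP there were 306 wild-type reads (fold 4.24) and 380 double-knockout reads (fold 3.14).

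**Figure D3:**
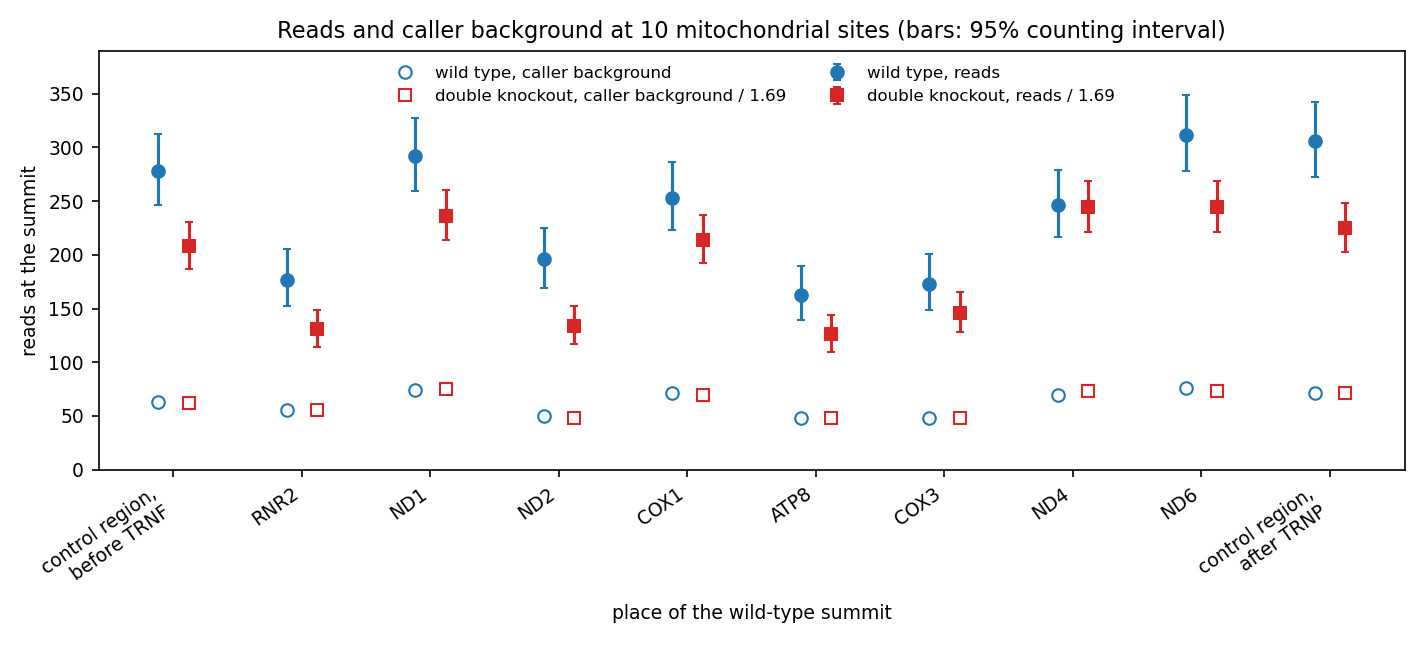
Reads at the summit (filled) and the caller's background there (open) for the 10 mitochondrial pairs (x axis, place of the wild-type summit). Double-knockout values are divided by 1.69, the ratio of the lowest backgrounds of the 2 lists. Intervals on reads are exact Poisson 95%. At the 8 pairs with matching summits the scaled backgrounds differ little (ratios of 0.968 to 1.01), where the divisor is itself a ratio of backgrounds. The double-knockout reads stand below the wild-type reads at all 8. At ND4 and ND6 the double-knockout point is the same ND5 summit.

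Reads followed the background along the genome. The wild-type background was lowest at COX3 (47.8 reads) and ATP8 (48.1) and highest at ND6 (75.7) and ND1 (74.4). The double-knockout background was lowest at COX3 (80.8) and ATP8 (80.9) and highest at ND1 (126). Across sites, reads and background had a Pearson r of 0.920 in wild type (10 sites) and 0.954 in the double knockout (9 sites), and reads of the 8 pairs with matching summits had an r of 0.963 between the lists. All points share 1 chromosome, and depth and copy number, so these are descriptions. Reads and background were also recovered from the same deposited values. A background taken from the labelled library would share reads with the site, so their r does not test a relation. Reads varied by a factor of 1.91 between wild-type sites, and folds by 1.39.

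Set against the nuclear sites, the mitochondrial sites combined many reads and low q with low folds. In wild type the median mitochondrial site had 249.5 reads and a −log10 q of 55.9, against 13 reads and 4.58 at the median nuclear site. In the double knockout these were 352 reads and 66.2 against 17 reads and 5.86. Only 2 nuclear sites per list had more reads than every mitochondrial site. By −log10 q the mitochondrial sites ranked from 8 to 50 in wild-type cells and from 6 to 116 in the double knockout. Their median fold was 3.71 in wild-type cells and 3.05 in the double knockout, against nuclear medians of 5.13 and 4.94. Of the nuclear sites, 74.1% in wild-type cells and 93.3% in the double knockout had a fold above that of every mitochondrial site. Their median background was 65.9 reads in wild-type cells and 106 in the double knockout, 37.9 and 39.8 times the nuclear medians. High copy number and more damage per copy both add reads, and they cannot be told apart in reads alone. Whether the caller's background came from an input or from the labelled library around the site is not given in the sources used here.

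Other sites on a raised background had like folds. Off the mitochondrial chromosome, 33 wild-type sites had a background of at least 20 reads, with a median fold of 4.07 (2.20 to 4.79), 7 of them above every mitochondrial site and 5 below. In the double knockout 31 sites had a background of at least 33.9 reads, the same minimum after scaling, with a median fold of 2.74 (2.04 to 4.00), 1 above every mitochondrial site and 4 below. The median background of these sites was 33.7 reads in wild-type cells and 56.2 in the double knockout, against 65.9 and 106 at the mitochondrial sites. Many of them follow one another in the lists.

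**Figure D4:**
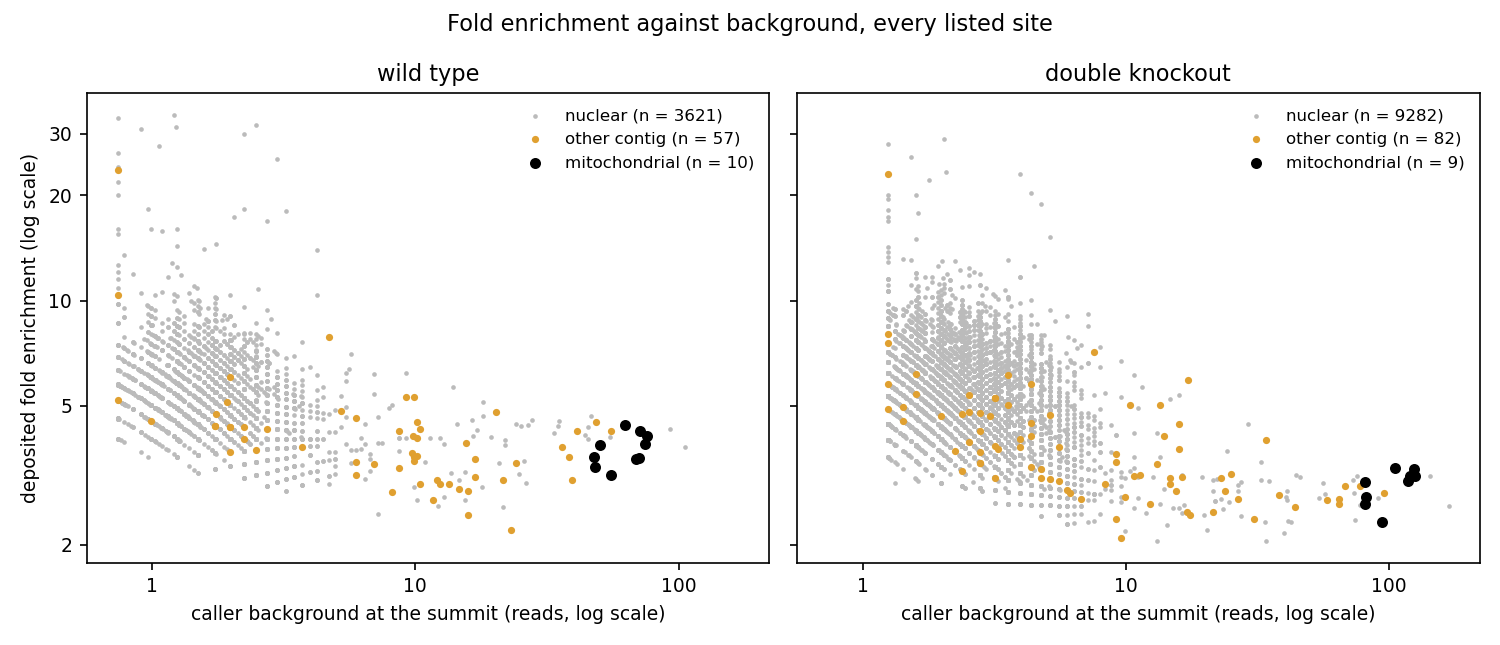
Deposited fold enrichment (y axis, log scale) against the caller's background at the summit in reads (x axis, log scale) for every site, wild type on the left and double knockout on the right, with mitochondrial sites in black, other contigs in orange and nuclear chromosomes in grey. The mitochondrial sites lie toward the right, among the lower folds, at backgrounds of 47.8 to 75.7 reads in wild-type cells and 80.8 to 126 in the double knockout. In each list 2 nuclear sites lie further right than all of them.

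The knockout addresses whether Tg accumulates when both glycosylases are missing. At the 8 pairs with matching summits, depth-scaled double-knockout reads were lower than wild-type reads in all 8. Of all shared sites in the genome 58.2% were lower. Of the 33 off the mitochondrial chromosome with a wild-type background of at least 20 reads, 97.0% were lower. The ratio of double-knockout to wild-type reads at the 8 pairs had a median of 0.760 and a range of 0.684 to 0.845. It was 0.748 (counting interval 0.638 to 0.879) in the control region before TRNF, 0.734 (0.630 to 0.856) after TRNP, and 0.738 (0.603 to 0.904) in RNR2. In the complex I genes it was 0.809 (0.694 to 0.945) at ND1 and 0.684 (0.563 to 0.833) at ND2. In COX1 it was 0.845 (0.718 to 0.997), in ATP8 0.772 (0.627 to 0.953) and in COX3 0.844 (0.692 to 1.03). Of these 8 intervals, only that of COX3 held 1. The 8 pairs lie on 1 chromosome and share 1 divisor, so they are not replicates of a genotype difference. A difference in mitochondrial copy number between the genotypes would move all of them together and cannot be told apart here.

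At the pairs with ND4 and ND6 the double-knockout reads belong to a summit in ND5, so the ratios of 0.992 (0.845 to 1.17) and 0.782 (0.674 to 0.909) compare different places. Over all 10 pairs the median was 0.777. With the ratio of depth alone as divisor (1.61 in place of 1.69) the 8 pairs had a median of 0.801 and a range of 0.721 to 0.891, and the interval also held 1 at COX1 (0.757 to 1.05) and ATP8 (0.660 to 1.004). Without any scaling the deeper double-knockout data had more reads at all 10 pairs, with a median ratio of 1.32.

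The deposited folds, taken as (reads + 1) / (background + 1), were lower in the double knockout at all 10 pairs, against 41.7% of all shared sites. The added 1 weighs more where the background is low, so these shares are not like for like. Median backgrounds were 1.81 (wild type) and 3.19 reads (double knockout) at all shared sites, and 65.9 and 111.8 at the 10 pairs. At the 33 other shared sites with a wild-type background of at least 20 reads, 97.0% had lower folds. The fold ratio of the 10 mitochondrial pairs ranged from 0.712 at ND2 to 0.939 at ND4, with a median of 0.796. Scaled in the same way, the caller's background had a double-knockout to wild-type ratio of 0.968 to 1.01 at the 8 pairs, with a median of 0.997. The divisor is itself a ratio of caller backgrounds, and the source of the background is not known. A ratio near 1 may therefore follow from the scaling. After the background was taken off, the ratio of the remaining reads at the 8 pairs had a median of 0.678 (0.587 to 0.792).

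Other shared sites on a raised background had low ratios too. At the 33 shared sites off the mitochondrial chromosome with a wild-type background of at least 20 reads, the depth-scaled ratio had a median of 0.668 (0.520 to 1.23) and was below 1 at 32. At the 2733 other shared sites with a lower background the median was 0.946. The 33 had a median wild-type background of 33.7 reads, against 65.9 at the 10 mitochondrial pairs. Only 4 nuclear wild-type sites reached the lowest mitochondrial background. Many of the 33 follow one another in the list, so they need not be separate places, and distances between them were not measured. Reads per base have an upper limit if duplicates are removed. The case taken here is 1 read kept per start and strand over the pooled libraries, with reads extended to the narrowest site (243 bp and 256 bp). At most 486 wild-type and 512 double-knockout reads could then cover a base. The highest mitochondrial summits reached 64.2% and 80.7% of that. Removal within each library before pooling would set a higher limit. Whether duplicates were removed, and at which step, is not given in the sources used here, and the part of such a limit in the ratio was not tested.

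**Figure D5:**
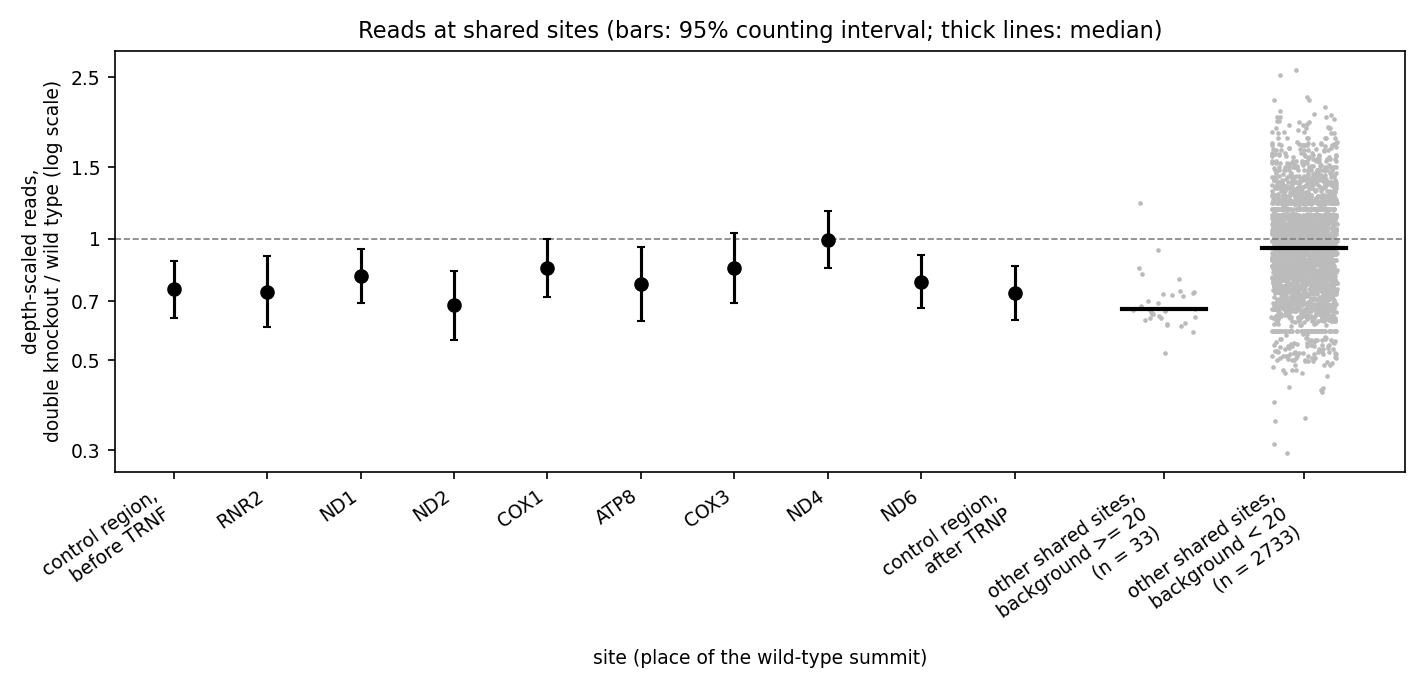
Depth-scaled reads in the double knockout over wild type (y axis, log scale; dashed line at 1) at the 10 mitochondrial pairs with exact 95% counting intervals, beside the 33 other shared sites with a wild-type background of at least 20 reads and the 2733 with less (grey points, thick line at the median). The mitochondrial ratios lie between 0.684 and 0.992, and the medians of the other sites are 0.668 and 0.946.

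Copies of mitochondrial genes in the nucleus were counted next. Of 474 nuclear pseudogenes named after mitochondrial genes, none was overlapped by a wild-type site and 1 by a double-knockout site, where the background over all 17051 nuclear pseudogenes was 0.252% and 0.786%. The 1 was MTND6P19, a pseudogene of ND6 on chromosome 8, with a fold of 5.33 and 11 reads. Counts this small do not set these pseudogenes apart from the others, and length was not matched. How reads that match both the mitochondrial genome and a nuclear copy were assigned is not given in the sources used here.

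Nuclear genes whose products serve mitochondrial DNA were also counted, by overlap with the gene body. Of 86 nuclear genes for respiratory chain subunits, 1 had a wild-type site and 2 had a double-knockout site, 1.16% and 2.33%, where the background over 20037 protein-coding genes was 5.9% and 14.0%. NDUFA10, an accessory subunit of complex I (chromosome 2, 239892442 to 240025342), held 4 wild-type sites with folds of 4.02 to 8.61 and 3 double-knockout sites with folds of 5.01 to 10.2. NDUFS4, another subunit of complex I, held 1 double-knockout site (fold 5.77). Subunit genes are mostly short, and gene length was not matched in these shares. Of 29 genes of mitochondrial DNA maintenance, 1 had a site in each list (3.45%), against the same background of 5.9% and 14.0%. TFB1M, which encodes a methyltransferase of the mitochondrial ribosomal RNA, held 1 wild-type site (fold 5.22) and TOP1MT, the mitochondrial topoisomerase, 1 double-knockout site (fold 5.01). TFAM, POLG, TWNK and POLRMT, which package, copy, unwind and transcribe mitochondrial DNA, held none in either list. Of 8 base excision repair genes whose products reach mitochondria, 2 had a wild-type site and 3 had a double-knockout site. The background was the same 5.9% and 14.0%. These counts are small and include NTHL1 in both lists, and gene length was not matched, so they do not set these genes apart. NTHL1, which is both the disrupted gene and the enzyme used for labelling, held 5 sites per list, with folds from 10.8 to 31.9 in wild-type cells and from 7.95 to 20.2 in the double knockout. Its strongest wild-type site had a −log10 q of 129, the highest of that list. OGG1, the glycosylase for oxidised guanine, held 1 wild-type site (fold 4.36) and 3 double-knockout sites (folds 5.02 to 6.70), and APEX2, an abasic site nuclease, 1 double-knockout site (fold 5.09). NEIL1, NEIL2, MUTYH, UNG and APEX1 had none.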

How the data were processed

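Site lists for hg38 were analysed, 1 per genotype, each matched to its group because its name carries the genotype word of the labelled libraries' titles. Per the submitters' processing notes, the tools were MACS2, Bowtie2, deepTools and bedtools, without versions; settings, the control and the pooling of libraries are not given in the sources available to this work. Rows hold the kinds of values of MACS2's narrow peak format, though not in its column positions. In each, the deposited score equals 10 times −log10 q without its decimals, the deposited fold enrichment is a ratio, and the deposited −log10 p and −log10 q come from the caller. All deposited q-values were below 0.05.

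Whole reads and background were recovered from fold, taken as (reads + 1) / (background + 1), and −log10 p, taken as the Poisson tail above the reads. They matched within 0.001 at 100% of sites in both lists. On data simulated with these same formulas, reads were recovered exactly at 100% of 500 sites with low and 500 with high background. This checks the arithmetic only. Double-knockout reads were divided by the ratio of the lowest backgrounds (1.251 over 0.7395, or 1.69). The ratio of depth alone (1.61) is that ratio times 243 over 256, the narrowest site widths taken as fragment lengths. Neither is a measured depth. Total reads per library are unknown. Reads at a summit had a median of 13 (6 to 405) in wild-type and 17 (6 to 452) in double-knockout sites. Intervals on reads are exact Poisson, and on ratios exact conditional binomial, at 95%. Both reflect counting error alone: PCR copies of a molecule are not independent. Nuclear length (3087 Mb) runs to the last annotated gene or site of each chromosome.

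Mitochondrial genes matched the RefSeq table in 37 of 37 cases, and the control region is the stretch between TRNP and TRNF. All 37 were accounted for, and of the nuclear lists each gene with a site was named. Assembly factors of complex I and read-through genes were left out of the subunit list. The members and lists were chosen with earlier results of these data known. The background minimum of 20 reads, the pairs with summits within 100 bp and the subtraction of background were chosen after seeing the data. No mitochondrial sequence is printed, since none was used here. Python 3.11.15, numpy 2.4.6, pandas 2.3.3, scipy 1.17.1 and matplotlib 3.10.9 were used.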

Additional observations from a re-analysis of the deposited data

How the results depend on the processing

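A minimum −log10 q of 5 or of the list median could remove no mitochondrial site, since the lowest values were 33.0 in wild-type and 23.2 in double-knockout sites, so these settings say nothing about the stability of the site numbers or the covered share. Sharing fell to 9 wild-type sites when 50% of both sites had to be covered, and to 8 in each list with summits at most 100 bp apart. The number of genes with a site, 23 by any overlap, was 8 in wild-type cells and 7 in the double knockout by summit, and likewise 8 and 7 by midpoint, because a site has 1 such point and can span several genes. Site density per Mb, 515 times the nuclear one in wild-type cells and 181 times in the double knockout, rose to 1141 and 299.5 times with −log10 q of at least 5. Against the 10% of nuclear sites with the highest background, the mitochondrial background was 19.0 times higher in wild-type cells and 20.4 times in the double knockout. Within 1 kb of a site lay 3 nuclear pseudogenes in the double knockout in place of 1. The ratio of reads, 0.777 over 10 pairs, turned to 1.32 without scaling for depth, and lay between 0.701 and 0.819 under the other alternatives. No paired analysis was possible because each genotype has 1 list for its 2 libraries; for the same reason no library could be left out.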
